A study of Mus musculus with 6 samples.

Results

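The genes described here make and check proteins in the endoplasmic reticulum (ER) of mouse muscle cells. They are 41 genes picked by name for their roles, with no cutoff on a measured value though with earlier results of these data known, and they fall into 27 chaperones and folding enzymes, 10 genes of ER-associated degradation (ERAD) and 4 sensors and transcription factors of the unfolded protein response (UPR). Of these, 40 are among the 11835 genes with a listed transcript, and all 40 passed the filter of a mean of at least 0.5 FPKM that left 11593 genes to test. The 41st, Derl3, has no listed transcript, so its level was not analysed here.

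Proteins that enter the secretory pathway or a membrane fold in the ER, where chaperones hold them, protein disulfide isomerases join their cysteines and lectins read their sugars. Proteins that fail to fold are passed back through the membrane and degraded by the proteasome, which is ERAD. When unfolded proteins build up, the UPR starts from 3 sensors. IRE1 splices the mRNA of XBP1, ATF6 is cut free from the membrane, and PERK slows translation while the mRNA of ATF4 is translated more. XBP1 and ATF6 act on chaperone and ERAD genes, while ATF4 acts on genes of amino acid supply and of the stress response, and other kinases besides PERK can start the ATF4 branch. Muscle cells carry a specialised ER, the sarcoplasmic reticulum, and differentiating myoblasts are known to use the UPR.

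The cells were C2C12, a mouse myoblast line that fuses into myotubes in medium low in serum. All 6 samples were C2C12 put through differentiation medium, and the labels call them mouse myotube. The 3 siNC samples received a negative control (NC) siRNA, and the 3 siCNN3 samples received an siRNA against CNN3, the actin-binding protein calponin 3. The methods give a repeated transfection and a harvest time for differentiation assays in general, but the sources used here tie neither that time nor a particular CNN3 siRNA to the sequenced RNA, and no untransfected culture was sequenced among these libraries. The comparison asks how loss of Cnn3 changes the transcripts of the cell. Values are FPKM (fragments per kilobase of transcript, scaled to library size), summed over the listed transcripts of each gene, so levels can be set side by side between genes. The read depth of each library is unknown.

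Of the targeted transcript, Cnn3, siNC replicates 1 to 3 held 62.8, 61.4 and 62.8 FPKM and the siCNN3 replicates 19.0, 39.2 and 25.6 FPKM. The groups did not overlap, and the siCNN3 mean was 44.8% of that in siNC. On the log2 scale the fold change was -1.19 (standard error, SE, 0.242), short of the threshold over all genes (limma adjusted p = 0.0669). Without siCNN3 replicate 2, the library with the most Cnn3 left, it was called (limma adjusted p = 0.0477).

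The muscle markers were present to unequal degrees. Desmin (Des) was listed at 113 to 125 FPKM in siNC and skeletal actin (Acta1) at 24.6 to 33.8 FPKM, but creatine kinase (Ckm) stayed under 1 FPKM in every library and titin (Ttn) was not analysed here. Summed over the 9 muscle markers listed of 10, the level was 175 to 205 FPKM in siNC and 103 to 123 FPKM in siCNN3, and 4 of the 8 tested were called lower (Acta1, Mylpf, Tnnt3 and Myh3). Des made up most of this sum and had the smallest fold change of the 8 (log2 -0.36), beside a list median of -1.115. In siNC, Myog, Myh3, Myod1 and Mef2c were low, at 1.2 to 3.1, 2.0 to 3.0, 1.9 to 3.1 and 1.5 to 2.3 FPKM. Of 8 blood and macrophage markers, Ptprc, Adgre1, Csf1r and Alas2 had no transcript listed, and the other 4, which include 2 globins, summed to 154 to 427 FPKM in siNC and 34.8 to 47.2 FPKM in siCNN3. Of these 4, the globin Hbb-bs was called lower, with a log2 fold change of -3.27 (limma adjusted p = 0.0264). Of 5 adipocyte markers only Fabp4 was listed, at 8.09 to 10.9 FPKM in siNC and 2.17 to 3.13 FPKM in siCNN3, and it was called lower (-1.46, limma adjusted p = 0.0152). Of 5 endothelial markers only Tek was listed, at 0.681 to 1.37 FPKM and 0.733 to 1.24 FPKM. Of the plasma cell markers, cells known for a large ER, only Sdc1 passed the filter, at 80.9 to 115 FPKM in siNC and 76.9 to 128 FPKM in siCNN3.

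The 6 libraries were not equally spaced. Over all genes tested, siCNN3 replicates 1 and 2 lay closest of any pair, with a median absolute log2 difference of 0.111 (0.064 over the members), while siCNN3 replicate 3 differed from them by 0.320 and 0.292. It lay nearer to siNC replicate 1, with a difference of 0.225. Nothing in the sources says whether siCNN3 replicates 1 and 2 came from separate cultures, and without counts their closeness cannot be set against sampling noise. If they did not, n would be 2 in siCNN3 and the SE and p values given here would be too small. With their mean taken as 1 sample, an alternative added after the data were seen, 29 genes were called higher and 3 lower, and still no member. Within siNC the median differences were 0.181 to 0.323. The interferon response list, 15 genes, moved with the groups and with these gaps: its summed level was 63.0, 608 and 211 FPKM in siNC and 4949, 4687 and 2673 FPKM in siCNN3, and 10 of the 15 were called higher. The part of these differences in the results that follow was not tested beyond leaving out each library in turn and that average.

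The promoters of the members show which of them carry the sequences that the UPR factors are known to bind. RefSeq promoters of GRCm38.p6, from 250 bases before to 50 after each start, were matched for 34 of the 41 members (39 promoters), the genes Ero1l and Ero1lb through their current names. Hyou1, Sil1, Hspa13, Manf, Erp29, Derl1 and Atf6 were not matched. The ER stress element (ERSE, the site of ATF6 with NF-Y) was searched as CCAAT, any 9 bases, CCACG. Its second form (ERSE-II) was searched as ATTGG, any base, CCACG, the UPR element as TGACGTGG and the site of ATF4 with C/EBP partners (CARE) as TTGCATCA, each on both strands. ERSE was found in 39 of 32851 promoters (0.119%) and in 10 of the 39 member promoters, each of another gene. Those genes were the chaperone or folding genes Calr, Canx, Creld2, Dnajc3, Ero1lb, Hsp90b1, Hspa5 and Pdia6 and the ERAD genes Syvn1 and Derl3.

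The stretches around ERSE are shown for 3 abundant chaperones and for Syvn1, because these are members long known as targets of the UPR factors. Capitals mark the 5 bases at either end of the element, read 5′ to 3′ on the strand of the gene, so that CGTGG and ATTGG mark an element in the opposite direction.
Hspa5 (chr2:34772020-34772048, + strand): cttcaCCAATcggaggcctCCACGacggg
Hsp90b1 (chr10:86705624-86705670, - strand): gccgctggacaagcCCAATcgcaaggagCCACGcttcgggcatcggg
Calr (chr8:84847061-84847107, - strand): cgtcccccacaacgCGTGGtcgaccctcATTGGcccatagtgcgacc
Syvn1 (chr19:6046518-6046564, + strand): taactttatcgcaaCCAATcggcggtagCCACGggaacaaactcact
The element of Hspa5 lies 65 to 47 bases before the RefSeq start, inside the first exon of a listed transcript that begins further upstream. Hsp90b1 holds a second ERSE nearer to its start, 107 to 89 bases before it.

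CARE was found in 294 promoters (0.895%), and among the members in that of Herpud1 alone. Herpud1, a membrane protein of the ERAD complex, also carries ERSE-II, which 12 promoters hold (0.0365%). It was the only 1 of the 27025 genes in the promoter table with CARE and either form of ERSE together. The stretch that holds both is shown for that reason, with CARE and then the 2 ends of ERSE-II in capitals, 52 bases apart, 126 to 28 bases before the start.
Herpud1 (chr8:94386303-94386401, + strand): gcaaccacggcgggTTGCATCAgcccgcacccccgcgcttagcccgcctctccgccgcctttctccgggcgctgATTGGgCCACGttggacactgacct
The same CARE letters stood in the promoters of 3 of the 18 other UPR and stress genes with a promoter in the table, Atf3, Chac1 and Nupr1, whose levels are given further on. Their stretches are shown with CARE in capitals, to be set beside that of Herpud1.
Atf3 (chr1:191183422-191183457, - strand): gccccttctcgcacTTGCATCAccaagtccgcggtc
Chac1 (chr2:119351035-119351070, + strand): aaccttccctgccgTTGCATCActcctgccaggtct
Nupr1 (chr7:126625568-126625585, - strand): ccagaTTGCATCAgacag
The UPR element was found in 222 promoters (0.676%), among them those of Txndc5 and Txndc11, and ERSE-II also in that of Dnajb11. A match describes letters in these windows only.

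No member was called in either direction, whereas 8 of 20 other genes of the UPR and its stress branch were called higher in siCNN3. Over all 11593 genes, limma called 200 higher (1.73%) and 39 lower (0.336%) at an adjusted p below 0.05 (Benjamini-Hochberg). At an unadjusted p below 0.05, 3 of the 40 members were higher, beside 9.94% of all genes, and 4 were lower, beside 6.14%. The groups did not overlap in 6 members that were higher, beside 13.8% of all genes, and in 5 that were lower, beside 9.35%. These member counts (3, 4, 6 and 5 of 40) are near the shares over all genes. A Student test of each gene on its own called 0 members and 0 genes in all, with 6 members at an unadjusted p below 0.05, beside 15.5% of all genes. An exact permutation test of 3 against 3 cannot go below 0.1, and p-values measure only the spread between these 6 libraries.

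The intervals show what size of change these libraries leave room for. The 95% interval of the log2 fold change lay below a rise of 1, a doubling of FPKM + 1, for 37 of the 40 members. Over all genes it did so for 10001 of 11593. The exceptions among the members were Herpud1, Sel1l and Ero1l. For 34 members the interval lay between -1 and 1, as it did for 9087 of all 11593 genes. For 34 of 40 the fold change itself was smaller than 0.5 in size, as it was for 84.7% of all genes.

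**Figure D1:**
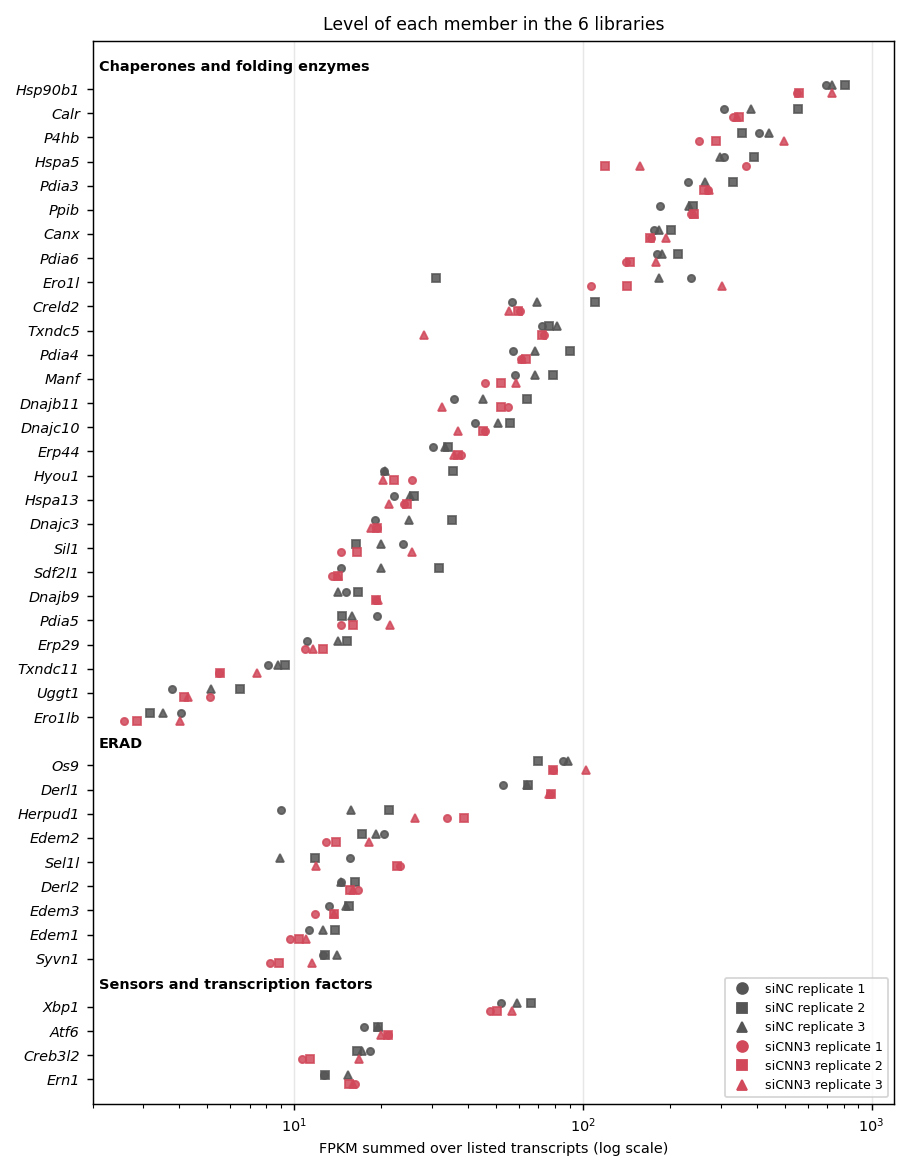
FPKM of each of the 40 members (rows, by role and mean level) in the 6 libraries, on a log scale; grey marks are siNC, red marks siCNN3, and circles, squares and triangles are replicates 1, 2 and 3. Levels run from 2.58 FPKM for Ero1lb to 811 FPKM for Hsp90b1. The groups do not overlap in 6 higher members, Herpud1 among them, beside 13.8% of all genes, and in 5 lower ones, beside 9.35%.

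Among the 27 chaperones and folding enzymes, 22 had a log2 fold change below 0 and 5 above it, with a median of -0.18 (range -0.79 to 0.58), beside a median of 0.028 over all genes. None was called in either direction. At an unadjusted p below 0.05, Dnajb9 was higher and Txndc11, Manf and Pdia6 were lower, with adjusted p of 0.259, 0.225, 0.289 and 0.291 (limma). The intervals of 26 of the 27 lay below a rise of 1, beside 10001 of all 11593 genes.

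Hspa5 encodes BiP, the main chaperone of the ER and the gene most often read as a sign of the UPR (chromosome 2, 34771970 to 34777547, GRCm38). It was listed at 307, 392 and 298 FPKM in siNC, against 368, 120 and 158 FPKM in siCNN3. Replicate 1 of siCNN3 lay inside the siNC range, and replicates 2 and 3 lay below every siNC library. On the log2 scale the difference was -0.79 (SE 0.390, 95% interval -1.71 to 0.14, limma adjusted p = 0.378), and it was -1.26 without siCNN3 replicate 1 and -0.45 without siCNN3 replicate 2.

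The sum for Hspa5 hid a difference between transcripts. Hspa5-202 was listed at 295, 379 and 287 FPKM in siNC, against 354, 54.9 and 92.2 FPKM in siCNN3. Hspa5-201 was listed at 12.1, 12.8, 11.6 and 13.9 FPKM in siNC and siCNN3 replicate 1, but at 64.8 and 65.6 FPKM in siCNN3 replicates 2 and 3. The share of Hspa5-201 in the sum was 3.25% to 3.95% in the first 4 of these libraries and 54.1% and 41.6% in the last 2. The higher shares were thus seen only in siCNN3, though not in all its libraries, and whether they went with the group was not tested. Weighting each transcript by its length, an alternative chosen after the data were seen, gave a log2 fold change of -0.63 (limma adjusted p = 0.405), and taking Hspa5-202, the highest transcript, alone gave -1.38 (limma adjusted p = 0.406).

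Hsp90b1 encodes GRP94, the HSP90 of the ER (chromosome 10, 86690209 to 86705509), and had the highest mean level of the members. It was listed at 695, 811 and 732 FPKM in siNC, against 550, 560 and 730 FPKM in siCNN3. Replicates 1 and 2 of siCNN3 were below the siNC range, and replicate 3 was inside it. Its log2 fold change came to -0.29 (SE 0.135, limma adjusted p = 0.351).

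Calr encodes calreticulin, a lectin chaperone that also binds calcium (chromosome 8, 84841850 to 84846934). It was listed at 309, 556 and 383 FPKM in siNC, against 332, 347 and 343 FPKM in siCNN3, so that siCNN3 lay inside a wide siNC range set by replicates 1 and 2. The fitted log2 difference was -0.25 (SE 0.204, limma adjusted p = 0.598), and leaving out siNC replicate 2 or 1 gave -0.016 or -0.44. Its membrane-bound relative calnexin (Canx) was listed at 176 to 201 FPKM in siNC and 171 to 194 FPKM in siCNN3, and Uggt1, which puts glucose back on misfolded glycoproteins, at 3.78 to 6.50 FPKM and 4.15 to 5.10 FPKM. All 3 genes of the lectin cycle overlapped between the groups.

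P4hb, the protein disulfide isomerase PDI (chromosome 11, 120560298 to 120573253), was listed at 407, 357 and 442 FPKM in siNC, against 253, 290 and 498 FPKM in siCNN3. Replicates 1 and 2 of siCNN3 were the lowest of the 6 libraries and replicate 3 the highest. The log2 fold change was -0.27 (SE 0.249, limma adjusted p = 0.640), and it was -0.56 without siCNN3 replicate 3 and -0.076 without siCNN3 replicate 1.

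The other disulfide isomerases stood on both sides of 0. Pdia6 was listed at 180, 213 and 187 FPKM in siNC, against 141, 145 and 179 FPKM in siCNN3, with no overlap (log2 fold change -0.32). Pdia3, which works with calnexin and calreticulin, was at 232 to 330 FPKM and 264 to 273 FPKM (-0.020), Pdia4 at 57.2 to 90.0 FPKM and 61.2 to 63.3 FPKM (-0.19, and -0.016 without siNC replicate 2), and Pdia5 at 14.7 to 19.3 FPKM and 14.5 to 21.5 FPKM (0.048). Txndc5 was level with siNC in siCNN3 replicates 1 and 2, at 73.3 and 72.1 FPKM beside 72.0 to 81.2 FPKM, and stood at 28.3 FPKM in replicate 3 (a log2 change of -0.52, and -0.073 without that library). Txndc11 was listed at 8.14, 9.32 and 8.78 FPKM in siNC, against 5.48, 5.54 and 7.44 FPKM in siCNN3, with no overlap and a log2 fold change of -0.46 (limma adjusted p = 0.225), and a small part of its exons (1.40% of bases) is shared with Snn on the other strand.

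Ero1l, the oxidase that recharges PDI (chromosome 14, 45283087 to 45318771), had the widest interval of the members. It was listed at 237, 31.1 and 184 FPKM in siNC, against 107, 142 and 304 FPKM in siCNN3. The low value of siNC replicate 2 stood apart from the other 5. On the log2 scale the difference was 0.58 (SE 0.776, 95% interval -1.26 to 2.42, limma adjusted p = 0.758), and without siNC replicate 2 it turned to -0.32. Its paralog Ero1lb was at 3.16 to 4.06 FPKM in siNC and 2.58 to 4.03 FPKM in siCNN3.

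Sdf2l1, a partner of BiP and its DNAJ co-chaperones (chromosome 16, 17130138 to 17132383), was listed at 14.5, 31.8 and 20.0 FPKM in siNC, against 13.5, 14.1 and 14.2 FPKM in siCNN3. The groups did not overlap, though siNC replicate 1 was within 1 FPKM of the siCNN3 libraries. Its log2 fold change came to -0.56 (SE 0.262, limma adjusted p = 0.356), and it was -0.27 without siNC replicate 2.

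The J-domain partners of BiP also stood on both sides of 0. Dnajb9 (ERdj4), a known XBP1 target, was listed at 15.1, 16.7 and 14.2 FPKM in siNC, against 19.2, 19.1 and 19.4 FPKM in siCNN3. Its groups did not overlap, with a log2 fold change of 0.31 (SE 0.118, limma adjusted p = 0.259). Dnajc3 (p58IPK), an inhibitor of PERK, was listed at 19.1, 35.1 and 24.99 FPKM in siNC, against 19.3, 19.4 and 18.5 FPKM in siCNN3 (a log2 change of -0.41, limma adjusted p = 0.402), and the change was -0.19 without siNC replicate 2. Dnajb11 (ERdj3) was at 35.7 to 64.1 FPKM and 32.6 to 55.1 FPKM, and Dnajc10 (ERdj5), a reductase, at 42.1 to 55.7 FPKM and 37.1 to 45.6 FPKM.

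In their summed FPKM, the remaining chaperone genes overlapped between the groups or differed little. The nucleotide exchange factors of BiP, Hyou1 and Sil1, had log2 fold changes of -0.13 and -0.11, and the HSP70 relative Hspa13 had -0.067. Hyou1 turned to 0.13 without siNC replicate 2, and Sil1 to 0.016 without siNC replicate 1 and 0.046 without siCNN3 replicate 1. Manf, a secreted ER stress factor, was at 58.3 to 78.9 FPKM in siNC and 45.7 to 58.7 FPKM in siCNN3 (log2 fold change -0.38). Its main form, Manf-202, did not overlap, at 51.9, 74.0 and 63.8 FPKM in siNC, against 34.8, 49.2 and 47.5 FPKM in siCNN3. Taken alone, that form gave -0.52 (limma adjusted p = 0.299). In siCNN3 replicate 3, which made the sums overlap, Manf-203 held 16.1% of the sum, beside 0.107% to 0.533% in siNC. Creld2 was at 56.9 to 110 FPKM and 55.6 to 60.3 FPKM (-0.37, and -0.10 without siNC replicate 2). Erp44, which holds back unfinished proteins in the early secretory pathway, was at 30.2 to 34.1 FPKM and 35.8 to 37.7 FPKM with no overlap (0.18). Ppib, the cyclophilin of the ER, had 0.15, and Erp29 had -0.18, but 30.5% of the exon bases of Erp29 are shared with Naa25 on the other strand, so its reads may be divided between them.

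One siNC library stood high for many chaperones. Replicate 2 of siNC held the highest of the 6 values for 18 of the 27 chaperones (66.7%) and for 21 of the 40 members (52.5%), beside 21.1% of all genes. It was also the siNC library with the most interferon response transcripts, and with the most globin. Leaving it out moved the fold change of 19 of the 40 members by over 1.5 times, 17 of them toward or past 0. Without it the median log2 fold change of the chaperones was -0.10, and without siNC replicate 1 it was -0.31. The mean log2 level of the chaperones, relative to the siNC mean of each gene, was -0.12, 0.11 and 0.007 in siNC and -0.19, -0.21 and -0.12 in siCNN3, so siNC replicate 1 and siCNN3 replicate 3 were level for the chaperones. Over all genes tested they were not, at -0.108 in siNC replicate 1 and 0.03 in siCNN3 replicate 3.

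**Figure D2:**
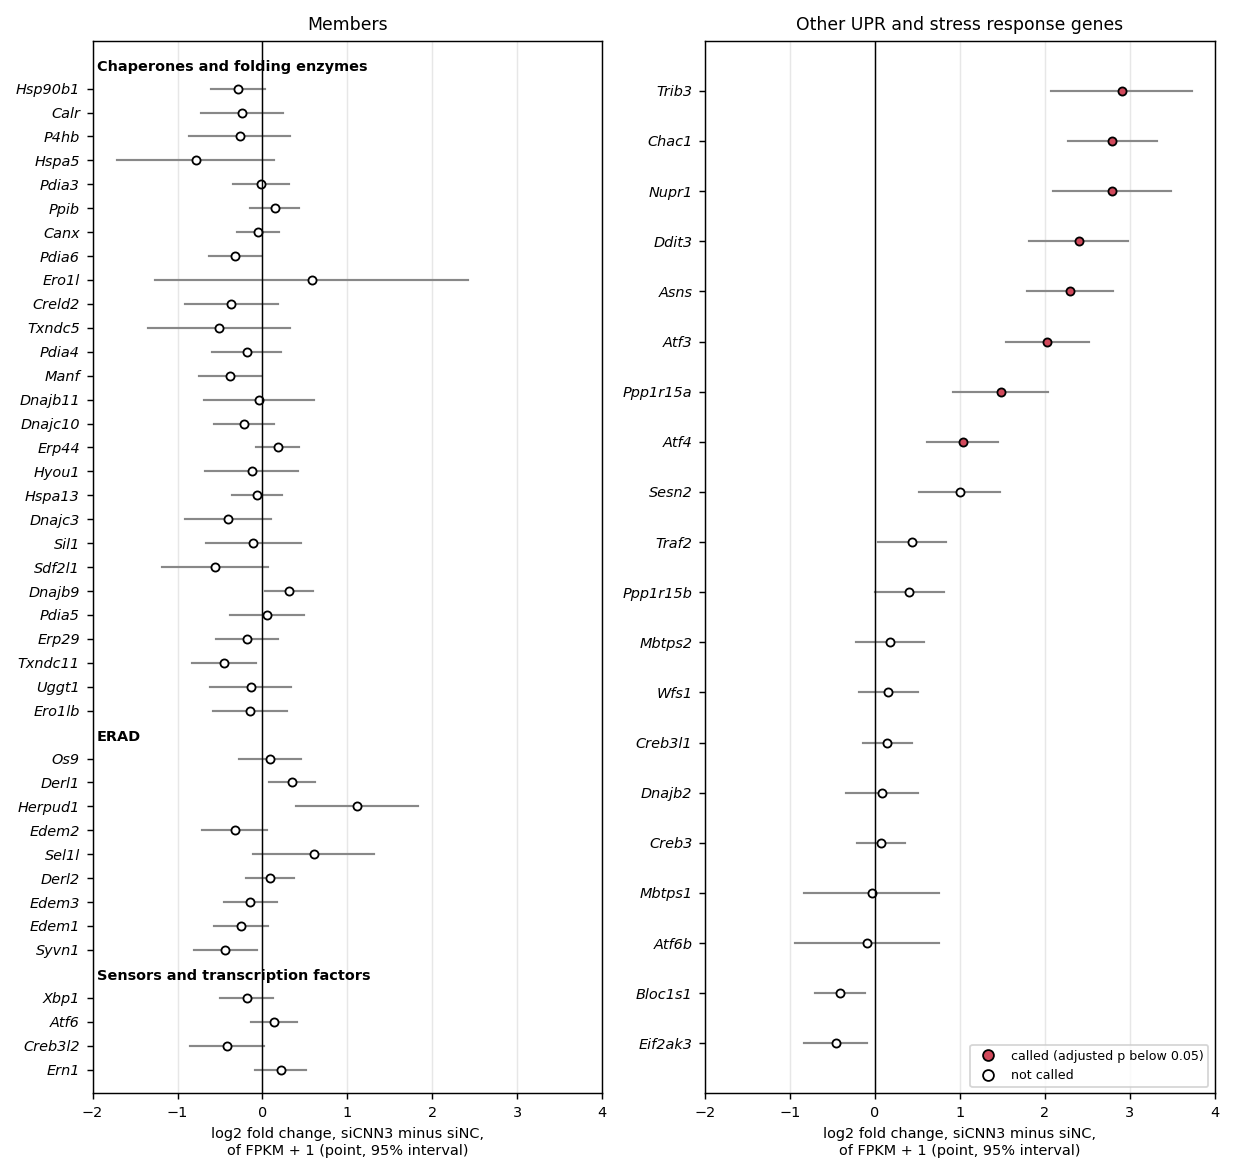
Log2 fold change of FPKM + 1, siCNN3 minus siNC, with its 95% interval, for the 40 members by role (left) and for 20 other UPR and stress response genes (right); filled points passed an adjusted p below 0.05. No member passed, while 8 of the 20 genes on the right did, all of them higher in siCNN3.

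The 9 ERAD genes measured were split, with 5 above 0 and 4 below and a median log2 fold change of 0.089 (range -0.44 to 1.11). This median changed sign with the highest transcript of each gene in place of the sum (-0.11), under quantile normalization (-0.017) and without siNC replicate 2 (-0.014) or siCNN3 replicate 3 (-0.034). None was called. Herpud1 and Derl1 were higher and Syvn1 lower at an unadjusted p below 0.05.

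Herpud1 (chromosome 8, 94386438 to 94395377) had the largest fold change of the 40 members and their smallest p. It was listed at 8.96, 21.2 and 15.8 FPKM in siNC, against 33.8, 38.6 and 26.1 FPKM in siCNN3, so that every siCNN3 library was above every siNC library. The fitted log2 difference was 1.11 (SE 0.304, 95% interval 0.39 to 1.83, unadjusted p = 0.00826), which did not pass over all genes (limma adjusted p = 0.131). Over the alternatives that left out a library it was 0.79 to 1.37, with adjusted p from 0.0978 to 0.412. Of its listed transcripts, Herpud1-201 was at 2.69, 11.4 and 11.1 FPKM in siNC, against 21.2, 22.8 and 19.5 FPKM in siCNN3, with no overlap. Herpud1-205 was at 6.27, 9.81 and 4.69 FPKM and at 12.6, 15.8 and 6.64 FPKM, so that siCNN3 replicate 3 lay inside the siNC range.

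Sel1l and Syvn1 encode the scaffold and the ubiquitin ligase (HRD1) of one ERAD complex and stood on opposite sides of 0. Sel1l (chromosome 12, 91806043 to 91849157) was listed at 15.6, 11.8 and 8.93 FPKM in siNC, against 23.3, 22.7 and 11.9 FPKM in siCNN3. Replicates 1 and 2 of siCNN3 were above the siNC range and replicate 3 inside it (a log2 change of 0.60, SE 0.300, limma adjusted p = 0.378). Syvn1 (chromosome 19, 6046576 to 6053712) was listed at 12.6, 12.8 and 14.1 FPKM in siNC, against 8.21, 8.86 and 11.5 FPKM in siCNN3. Its groups did not overlap (a log2 change of -0.44, SE 0.157, limma adjusted p = 0.237), although its 4 listed transcripts took very different shares from library to library, Syvn1-204 from 6.31% to 99.9%. Weighted by transcript length, an alternative chosen after the data were seen, the groups overlapped. Replicate 2 of siNC then stood at 10.9 and replicate 3 of siCNN3 at 11.5 (a log2 change of -0.39, limma adjusted p = 0.349).

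Derl1, a channel component of ERAD (chromosome 15, 57869502 to 57892448), was listed at 53.0, 64.6 and 64.0 FPKM in siNC, against 77.0, 77.3 and 76.1 FPKM in siCNN3. The groups did not overlap, and the siCNN3 libraries were close together (a log2 change of 0.34, SE 0.115, limma adjusted p = 0.205). Its relative Derl2 was at 14.5 to 16.2 FPKM and 15.5 to 16.6 FPKM, and 5.37% of its exon bases are shared with Mis12 on the other strand. Os9, a lectin that brings glycoproteins to the ligase (chromosome 10, 127095650 to 127121131), was listed at 85.3, 69.7 and 88.4 FPKM in siNC, against 78.9, 78.8 and 102 FPKM in siCNN3, with a log2 fold change of 0.091 (SE 0.153, limma adjusted p = 0.812).

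The 3 EDEM genes, whose products trim mannose from proteins bound for ERAD, had log2 fold changes of -0.25 (Edem1), -0.33 (Edem2) and -0.14 (Edem3). Only Edem1, which was at 11.2 to 13.9 FPKM in siNC and 9.69 to 11.0 FPKM in siCNN3, had groups that did not overlap. Edem2 was listed at 20.4, 17.1 and 19.3 FPKM in siNC, against 12.9, 13.9 and 18.2 FPKM in siCNN3, with replicate 3 alone inside the siNC range.

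Of the 4 sensors and transcription factors, 2 were above 0 and 2 below, and none was called or had an unadjusted p below 0.05. Xbp1 (chromosome 11, 5520659 to 5525893) was listed at 51.9, 66.2 and 59.0 FPKM in siNC, against 47.7, 50.4 and 57.0 FPKM in siCNN3. The groups overlapped (a log2 change of -0.19, SE 0.133, limma adjusted p = 0.542, and -0.10 without siNC replicate 2). IRE1 acts by cutting a very short intron from this mRNA, and none of the 3 listed transcripts had an intron shorter than 300 bases, so these files do not tell the spliced form apart. Xbp1-201 made up 86.5% to 89.8% of the sum in all 6 libraries.

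The genes of the sensors IRE1 and ATF6 had fold changes above 0. Ern1, which encodes IRE1 (chromosome 11, 106394650 to 106487852), was listed at 12.7, 12.7 and 15.4 FPKM in siNC, against 16.2, 15.4 and 15.96 FPKM in siCNN3 (a log2 change of 0.21, SE 0.128, limma adjusted p = 0.464). Atf6 (chromosome 1, 170704674 to 170867771) was listed at 17.4, 19.5 and 19.5 FPKM in siNC, against 21.1, 21.2 and 20.0 FPKM in siCNN3 (a log2 change of 0.14, SE 0.115, limma adjusted p = 0.600). In both, the groups were apart by less than 0.5 FPKM. Creb3l2, a membrane-bound factor of the ATF6 kind (chromosome 6, 37327255 to 37442146), was listed at 18.2, 16.5 and 17.1 FPKM in siNC, against 10.7, 11.3 and 16.8 FPKM in siCNN3. Replicates 1 and 2 of siCNN3 were below the siNC range and replicate 3 was inside it (a log2 change of -0.42, SE 0.184, limma adjusted p = 0.328), and without siCNN3 replicate 3 it came closest to a call of any member in any alternative (limma adjusted p = 0.0509).

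Other genes of the same pathways, taken as 4 lists, placed the members in context. None of 29 other folding genes, 23 translocon and glycosylation genes or 23 other ERAD genes tested was called in either direction by limma or by the Student test. The unadjusted p was below 0.05 for 4 folding genes that were higher and 2 that were lower, for 2 lower translocon and glycosylation genes, and for 1 higher and 2 lower ERAD genes. Their median log2 fold changes were 0.045, -0.086 and 0.063, all small. The first turned to -0.045 under quantile normalization and -0.073 without siNC replicate 1, the second moved to -0.012 without siNC replicate 3 and -0.19 under quantile normalization, and the third turned to -0.024 under quantile normalization.

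The fourth list, 20 other genes of the UPR and the stress response it shares, had 8 genes called higher and 0 lower. Before adjustment 10 were higher and 2 lower at a p below 0.05, and the Student test called 0, with 11 at an unadjusted p below 0.05. The median log2 fold change was 0.42, and it was 0.26 without siNC replicate 1 and 0.70 with the highest transcript of each gene.

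Trib3, a pseudokinase that restrains ATF4, was listed at 3.00, 4.42 and 4.68 FPKM in siNC, against 51.7, 45.1 and 20.4 FPKM in siCNN3. It rose by 2.91 on the log2 scale (SE 0.350, limma adjusted p = 0.0144), but kept its call in only 2 of the 6 fits that left out a library (limma adjusted p up to 0.0731) and lost it with siCNN3 replicates 1 and 2 as 1 sample (0.0629). Chac1, which breaks down glutathione, was listed at 4.37, 7.92 and 6.56 FPKM in siNC, against 54.2, 52.2 and 40.0 FPKM in siCNN3, and rose by 2.79 (SE 0.221, limma adjusted p = 0.00473). Nupr1, a small stress-induced chromatin protein, was listed at 59.9, 34.7 and 33.3 FPKM in siNC, against 315, 208 and 374 FPKM in siCNN3, and rose by 2.79 (SE 0.292, limma adjusted p = 0.0099). In these 3 genes the lowest siCNN3 library was well above the highest siNC library.

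The other 5 called genes are named after their values were seen. Ddit3, which encodes CHOP, was listed at 122, 72.9 and 71.2 FPKM in siNC, against 438, 379 and 570 FPKM in siCNN3 and rose by 2.40 (limma adjusted p = 0.0099). Asns, which makes asparagine, rose by 2.30, Atf3, a factor of the ATF4 branch, by 2.03, and Ppp1r15a (GADD34), which lets translation resume, by 1.48 (limma adjusted p = 0.00972, 0.0099 and 0.0332). With the highest transcript of each gene in place of the sum, Asns stood at 1.59 and Ppp1r15a at 1.53, and neither was called (limma adjusted p = 0.389 and 0.0616). Atf4, the factor that gives this branch its name, stood at 136, 189 and 185 FPKM in siNC, against 400, 356 and 287 FPKM in siCNN3 and rose by 1.03 (limma adjusted p = 0.0427), a call it lost under quantile normalization (0.057), without a mean-variance trend (0.0604) and with the highest transcript (0.0722). Chac1 was called whichever library was left out, while Atf4 and Ppp1r15a were called in 1 of those 6 fits, without siCNN3 replicate 3, and Ddit3, Asns, Atf3 and Nupr1 in 5, all but that without siNC replicate 3. The number called fell to 1 without siNC replicate 3 and to 5 when replicate 1 of either group or replicate 2 of siCNN3 was left out, and also to 5 with siCNN3 replicates 1 and 2 as 1 sample, which lost Atf4, Ppp1r15a and Trib3.

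Genes that serve ATF6 and IRE1, and PERK itself, were not among those called. Eif2ak3, which encodes PERK, was listed at 6.38, 7.76 and 6.71 FPKM in siNC, against 4.41, 4.34 and 5.57 FPKM in siCNN3, with no overlap and a log2 fold change of -0.46 (limma adjusted p = 0.207). The proteases that cut ATF6, Mbtps1 and Mbtps2, had -0.039 and 0.18, and Atf6b had -0.091. Bloc1s1, whose mRNA IRE1 is known to degrade, was listed at 85.5, 111 and 103 FPKM in siNC, against 74.5, 76.5 and 72.2 FPKM in siCNN3, with no overlap (a log2 change of -0.41, limma adjusted p = 0.168). It was called lower under quantile normalization alone of the alternatives tried.

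**Figure D3:**
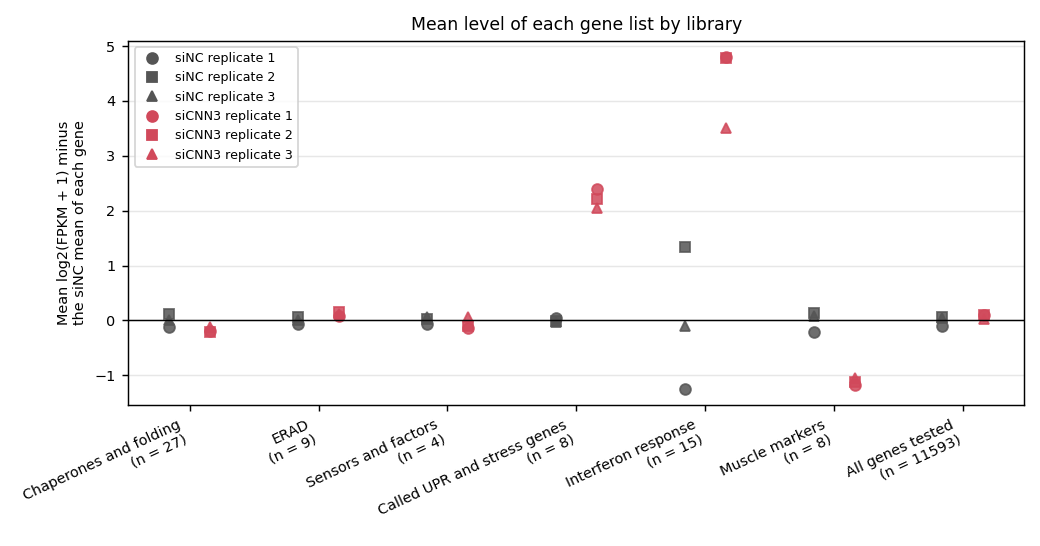
Mean over each gene list of log2(FPKM + 1) minus the siNC mean of each gene, per library; grey marks are siNC, red marks siCNN3, and circles, squares and triangles are replicates 1, 2 and 3. The chaperones, ERAD genes and sensors lie between -0.21 and 0.15 in every library, while the 8 called UPR and stress genes lie at 2.05 to 2.39 in siCNN3 and the interferon list at 3.51 to 4.80. Those 8 were chosen by this contrast, and all 20 genes of their list, not drawn, had means of 0.885 to 1.016 in siCNN3.

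The mean levels by library set these lists side by side. The 8 called UPR and stress genes, which were chosen by this contrast, had mean log2 levels of 2.39, 2.21 and 2.05 in siCNN3 relative to siNC. All 20 genes of that list had 1.016, 0.978 and 0.885. The ERAD genes had 0.088, 0.15 and 0.12 and the sensors -0.14, -0.11 and 0.056, beside 0.095, 0.1 and 0.03 over all genes tested. The interferon list had 4.80, 4.78 and 3.51, lowest in the same siCNN3 library as the called genes. In bulk RNA, fewer cells with a transcript and less of it per cell cannot be told apart.

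Members were also grouped by the letters in their promoters. The 11 tested members with ERSE or ERSE-II showed a median of -0.29 on the log2 scale, with 1 above 0 (Herpud1) and 10 below, and 8 of them were highest in siNC replicate 2. The 22 with a matched promoter that held neither had a median of -0.14, with 9 above 0 and 13 below, and 9 were highest in siNC replicate 2. Herpud1, which carried CARE, was the only member with this element, and 3 of the 8 called UPR and stress genes carried it. A looser form of CARE (TGATG, any base, AA), which 3.97% of all promoters hold, was found in 5 of those 8 (Asns, Atf3, Chac1, Nupr1 and Trib3) and among the members in Herpud1 and Txndc5. These groups were not compared by a test.

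**Figure D4:**
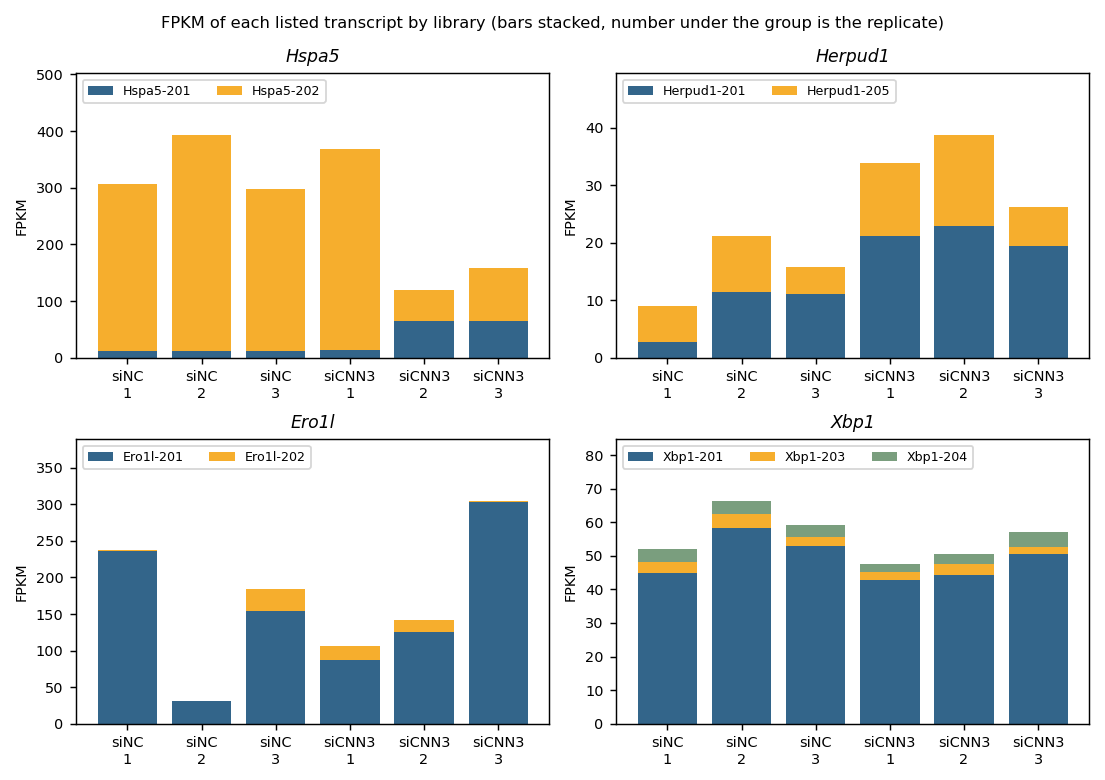
FPKM of each listed transcript of Hspa5, Herpud1, Ero1l and Xbp1 in the 6 libraries, as stacked bars from 0. Hspa5-202 makes up nearly all of Hspa5 in siNC and in siCNN3 replicate 1 but not in siCNN3 replicates 2 and 3, and Xbp1 keeps the same make-up throughout. Herpud1-201 is above the siNC range in every siCNN3 library, and Herpud1-205 only in siCNN3 replicates 1 and 2.

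How a sum is split between transcripts bears on several members, since 20 of the 40 have more than 1 listed transcript (71 in all). Os9 was made up of Os9-201 by 36.6% to 65.7% across the libraries, with no order by group. In Ero1l, Ero1l-201 made up 82.2% to 100.0% of the sum, so its spread between libraries lay in the main form. For the 20 members with a single listed transcript no such split can be seen.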

How the data were processed

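Total RNA of C2C12 cultures was sequenced. The authors deposited FPKM values per Ensembl transcript for 6 libraries (3 siNC, 3 siCNN3). The submitters' processing notes name Bowtie 0.12.2 and the genome builds mm10 and mm8 without their roles, and the program that made the FPKM is not given in the sources used here. Of 24023 transcripts, 23949 were matched, version dropped, to the GENCODE M21 annotation of GRCm38, and 74 (0.159% to 0.220% of FPKM) were not. FPKM were summed per gene symbol. Library sums were 322621 to 355591 FPKM. FPKM keep no read depth, so no counting interval can be given.

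The siCNN3 libraries were compared with the siNC libraries in limma 3.58.1 (R 4.3.3), with a mean-variance trend, on log2(FPKM + 1) of every gene whose mean reached 0.5 FPKM, with Benjamini-Hochberg adjustment over all genes and calls at 0.05. A fold change on this scale understates that of low genes. The test was tried on simulated data of 11593 genes. Where 200 carried a log2 change of 2, it called 181, of which 166 were right, and where no gene was changed it called 0. How often its calls are right in libraries as unequally spaced as the real ones was not tested. Given in full were, in each role group, the 3 members with the largest absolute fold change and the 3 with the highest mean, and in the other lists at most 3 called genes. Other members were described as their values asked. The members and lists were chosen with earlier results of these data known. Alternatives were other pseudocounts, filters, scalings, spread models, transcript choices, a replicate block, leaving out each library and, added after the data were seen, a length-weighted sum and the mean of siCNN3 replicates 1 and 2 as 1 sample. Motifs were searched as plain strings in RefSeq promoters (GRCm38.p6).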

Additional observations from a re-analysis of the deposited data

How the results depend on the processing

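No member was called in 718 fits of single members over 18 alternatives, in which the lowest adjusted p was 0.0509, and 31 of the 40 kept their sign in all. The counts over all genes depended on the processing. Higher calls numbered 100 with the highest transcript of each gene only and 0 with the Student test, and lower calls 63 with median-of-ratios scaling, 93 with quantile normalization, 22 with the highest transcript and 0 with the Student test. Higher calls made up 83.7% of all calls, 77.7% under median-of-ratios scaling and 68.2% under quantile normalization. Of the other UPR genes, 5 were called higher with the highest transcript and 0 with the Student test, and 1 was called lower under quantile normalization. Changed signs were those of Pdia5 (-0.05), Derl2 (-0.003) and Os9 (-0.017) under quantile normalization, and of Derl2 (-0.016) and Os9 (-0.11) with the highest transcript. The ERAD median was -0.017 under quantile normalization, -0.11 with the highest transcript and 0.028 with the length-weighted sum, added after the data were seen, and the median of the sensors was -0.11 under quantile normalization. With siCNN3 replicates 1 and 2 averaged as 1 sample, also added after the data were seen, 29 genes were called higher and 3 lower, 5 of the other UPR genes were called higher, Cnn3 was called at -1.16 (limma adjusted p = 0.0472) and Sil1 turned to 0.006. The cause of these changes was not tested, though that average leaves fewer samples.

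Leaving out each library in turn gave 16 to 443 higher and 4 to 159 lower genes, the most without siCNN3 replicate 3 and the fewest without siNC replicate 3. It gave 1 to 9 other UPR genes called higher, 0 to 2 other ERAD genes called lower, and 0 to 1 other folding genes called higher and 0 to 1 lower. Cnn3 ranged from -1.46 to -0.95. The medians ranged from -0.31 to -0.10 for chaperones, -0.034 to 0.11 for ERAD and -0.094 to 0.031 for sensors. Between 7 and 19 of the 40 members moved by over 1.5 times when a library was left out, the most without siNC replicate 2. Fold changes ranged across 0 for Dnajb11 (-0.24 to 0.19), Ero1l (-0.32 to 1.12), Hyou1 (-0.26 to 0.13), Os9 (-0.034 to 0.16), Pdia3 (-0.14 to 0.12), Pdia5 (-0.11 to 0.16), Sil1 (-0.34 to 0.046) and Uggt1 (-0.31 to 0.018).

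The sources used here do not say whether equal replicate numbers paired the samples. Same-numbered libraries correlated at -0.278, 0.314 and -0.025 in their deviations from the group means, and not every library correlated best with its own number. Replicates 1 and 2 of siCNN3 correlated alike with siNC replicate 2 (0.315 and 0.314). The correlations therefore cannot decide whether the numbers paired the samples. With the replicate block, 62 genes were called higher and 6 lower, 6 of the other UPR genes were called higher (Atf4 and Trib3 lost their calls, limma adjusted p = 0.126 and 0.0533), and no member was called. FPKM carry no counts, so depth limits low genes to an unknown degree.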
